A study of Mus musculus with 2 samples.

Results

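The 7 globin genes Hbb-y, Hbb-bh1, Hba-x, Hbb-bs, Hbb-bt, Hba-a1 and Hba-a2 were taken by name from the 21951 genes and transgenes of a single-cell RNA-seq library. Their unique molecular identifier counts (UMIs, one per captured RNA molecule) were read in 24161 barcodes of more than 2000 gene UMIs. These barcodes were split by the share of their gene UMIs that came from any gene whose symbol starts with Hba- or Hbb-, into below 5%, 5 to 20%, and 20% or more. Barcodes with 10 to 100 gene UMIs, which hold too little RNA for a cell, stood for the free RNA of the suspension. The total globin level of a class was set by this split and is given as a description.

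The library pooled 6 hashtagged suspensions of C57BL/6 mouse pups, 1 per group, from liver and heart of control mice, of mice with Cdh5-CreERT2 and iSuRe-Cre, and of mice with Cdh5-CreERT2 and iSuRe-HadCre. All pups received 1 dose of 4-hydroxytamoxifen (40 mg/kg) at postnatal day 3, and tissue was taken 3 days later, at postnatal day 6 to 7. The Cdh5 promoter drives the inducible recombinase CreERT2 in endothelial cells, and iSuRe-Cre and iSuRe-HadCre are reporter alleles that couple a membrane Tomato protein to Cre. The study describes loss of floxed Notch1 in the reporter-expressing cells of these tissues, so the reporter groups also carried floxed Notch1, which the labels do not list. The labels do not give the alleles of the control mice. Tissue was digested, red cells were lysed with a buffer, and CD31+ cells were sorted by Tomato signal, so the label of the cells is endothelial. The endothelial marker list summed to 7309 CPM (counts scaled to a total of 1000000, here over UMIs of genes other than globins) in barcodes below 5% globin, 7101 CPM at 5 to 20%, and 4906 CPM at 20% or more, while the erythroid list summed to 753, 2938 and 14459 CPM. Clusters led by hepatocyte, neutrophil, keratinocyte, chondrocyte and neuron markers were also present, so the label did not hold for all barcodes. The marker lists differ in size. Among them the endothelial list summed highest below 5% globin and at 5 to 20%, the erythroid list at 20% or more. Each group was 1 sample and there was 1 library, so no test between groups was made. Intervals are exact 95% intervals that cover counting error only.

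Haemoglobin carries oxygen as a tetramer of alpha-like and beta-like globin chains with haem. In the mouse, primitive red cells that arise in the yolk sac use the beta-like genes Hbb-y and Hbb-bh1 and the alpha-like gene Hba-x. Definitive red cells, made in the fetal liver and later in bone marrow, use the beta-like genes Hbb-bs and Hbb-bt. The adult alpha genes Hba-a1 and Hba-a2 are used in both kinds of cell. The liver of a newborn mouse still makes red cells, and primitive red cells decline in number before birth.

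The beta-like genes lay on the minus strand of chromosome 7 (GRCm38) in the order Hbb-y, Hbb-bh1, Hbb-bh2, Hbb-bs and Hbb-bt, from chr7:103851749-103853216 for Hbb-y to chr7:103812524-103813996 for Hbb-bt. Hbb-bh1 lay at chr7:103841637-103843164 and Hbb-bs at chr7:103826534-103828096. The alpha-like genes lay on the plus strand of chromosome 11, with Hba-x at chr11:32276400-32278116, Hba-a1 at chr11:32283511-32284465 and Hba-a2 at chr11:32296489-32297298. The adult copies were near-identical in coding sequence. Hba-a1 and Hba-a2 shared 428 of 429 coding bases, and Hbb-bs and Hbb-bt shared 443 of 444. Reads near the 3′ end can separate the members of these pairs unequally, since the last 100 bases of the transcripts aligned at 84 of 84 bases without a difference for Hba-a1 and Hba-a2 and matched at 68 of 97 aligned bases for Hbb-bs and Hbb-bt. The embryonic genes were more distant from the adult ones, with 74.3% coding identity between Hbb-y and Hbb-bs, 62.0% between Hba-x and Hba-a1, and 76.4% between Hbb-y and Hbb-bh1. UMIs of each adult pair are therefore also given as a sum, and the split within a pair is uncertain.

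The 110 bases before the RefSeq start of 6 members are shown because the embryonic and adult genes of a locus differ in the short elements they hold there. They were read from the GRCm38.p6 promoter table on the strand of the gene, 5′ to 3′, and the capitals mark every match to 5 motifs. The motif bound by KLF factors was spelled CCNCNCCC here. The motifs of the GATA factors were spelled AGATAA as one form and TGATAA as the other. The box of nuclear factor Y was spelled CCAAT on its side. The box near the start was spelled ATANAA and was searched on the gene strand alone, the others on either strand, and no match of one overlapped a match of another. Hbb-bh1 was not among them.
Hbb-y: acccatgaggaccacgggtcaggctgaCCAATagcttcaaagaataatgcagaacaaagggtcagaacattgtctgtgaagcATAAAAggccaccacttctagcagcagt
Hbb-bs: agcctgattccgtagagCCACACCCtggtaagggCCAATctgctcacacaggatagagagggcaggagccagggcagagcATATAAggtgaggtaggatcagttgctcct
Hbb-bt: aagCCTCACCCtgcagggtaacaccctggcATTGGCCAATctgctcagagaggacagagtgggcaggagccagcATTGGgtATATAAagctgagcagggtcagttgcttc
Hba-x: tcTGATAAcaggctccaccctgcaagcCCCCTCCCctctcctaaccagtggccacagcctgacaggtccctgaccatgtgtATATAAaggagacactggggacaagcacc
Hba-a1: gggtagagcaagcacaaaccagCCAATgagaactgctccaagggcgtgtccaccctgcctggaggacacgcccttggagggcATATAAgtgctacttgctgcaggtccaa
Hba-a2: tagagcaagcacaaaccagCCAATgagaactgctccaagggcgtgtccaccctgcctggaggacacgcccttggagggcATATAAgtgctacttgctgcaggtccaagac

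The windows were chr7:103853208-103853317 for Hbb-y, chr7:103827929-103828038 for Hbb-bs, chr7:103813924-103814033 for Hbb-bt, chr11:32276490-32276599 for Hba-x, chr11:32283562-32283671 for Hba-a1 and chr11:32296382-32296491 for Hba-a2. All 6 held an ATANAA match, which 9.88% of 32851 promoters of the same length held. The adult beta genes Hbb-bs and Hbb-bt held the KLF motif, the nuclear factor Y box and the start box together, as did 0.353% of all promoters. The embryonic beta gene Hbb-y held the nuclear factor Y box and the start box, and its window gave no match to the KLF motif. That window begins with accc, which fits the end of the KLF motif, and a match across the window edge could not be seen. Hba-x differed from the adult alpha genes, with a match to TGATAA and to the KLF motif and none to the nuclear factor Y box, which Hba-a1 and Hba-a2 held. Singly, the KLF motif was found in 33.1% of all promoters, the nuclear factor Y box in 20.2%, the AGATAA form in 3.99% and the TGATAA form in 3.03%. The matches describe letters only.

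Globin made up 8.29% of all gene UMIs in the 24161 barcodes, which was 17520353 of 211302602 UMIs. The class below 5% held 15113 barcodes (62.6%) with a median of 5550 gene UMIs, the class of 5 to 20% held 6578 (27.2%) with a median of 3631.5, and the class of 20% or more held 2470 (10.2%) with a median of 4289.5. Globin took 0.480%, 11.2% and 47.2% of the gene UMIs of these classes and 5.71% of the 922778 UMIs of free RNA. In the richest class 671 barcodes had over 10000 gene UMIs. At the class limits, 988 barcodes lay between 4 and 5% globin and 803 between 5 and 6%, 203 lay between 19 and 20% and 183 between 20 and 21%.

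The 4 adult genes supplied nearly all globin RNA in every class. Hbb-bs, the main adult beta chain, was the most abundant member at 2183 CPM (CPM over all gene UMIs) below 5%, 49447 CPM at 5 to 20%, 203384 CPM at 20% or more and 28194 CPM in free RNA. Hbb-bt, the second adult beta chain, reached 1059, 23678, 100138 and 12514 CPM in the same order. The adult alpha chains followed, with Hba-a1 at 890, 22457, 94537 and 8945 CPM and Hba-a2 at 634, 15567, 68858 and 7031 CPM. The order Hbb-bs, Hbb-bt, Hba-a1, Hba-a2 was the same in all 4 sets, and no neighbouring pair had overlapping intervals. Coding lengths were 429 or 444 bases for all members. Reads shared by near-identical copies can be split or lost, which a sum of the pair does not restore. Levels of different members are therefore not strictly comparable.

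The embryonic genes were present at far lower levels. By summed UMIs their order was Hbb-y above Hba-x above Hbb-bh1 in every class. At 20% or more the sums of Hbb-y and Hba-x rested on a few barcodes, and by barcodes with a UMI the order differed. Hbb-bh1 was found in 363 barcodes of this class, Hbb-y in 271 and Hba-x in 146. Hbb-y stood at 32.9 CPM below 5%, 1024 CPM at 5 to 20%, 3495 CPM at 20% or more and 272 CPM in free RNA. Hba-x, the embryonic alpha-like chain zeta, stood at 5.06, 209, 1125 and 75.9 CPM. Hbb-bh1, the embryonic beta-like chain, stood at 0.913, 41.7, 252 and 26.0 CPM. The gene Hbb-bh2, which also carries an Hbb- symbol, had 7 UMIs in 6 barcodes, all in the class of 20% or more.

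Set against all globin UMIs, which removes the level fixed by the split, the make-up differed by under 3 percentage points between the 3 classes for each member. Hbb-bs took 45.4%, 44.0% and 43.1% of globin UMIs from the poorest to the richest class and 49.4% of free RNA globin. Hbb-bt took 22.05%, 21.1%, 21.2% and 21.9%. Hba-a1 took 18.5%, 20.0%, 20.0% and 15.7%, and Hba-a2 took 13.2%, 13.8%, 14.6% and 12.3%. As sums, the adult beta pair took 67.5%, 65.04%, 64.3% and 71.3%, and the adult alpha pair 31.7%, 33.8%, 34.6% and 28.0%. The ratio of adult alpha to adult beta UMIs was 0.470, 0.520 and 0.538 in the 3 classes and 0.392 in free RNA, so free RNA held relatively more beta. The ratio of Hbb-bt to Hbb-bs stayed between 0.479 and 0.492 in the classes, with 0.444 in free RNA, and that of Hba-a2 to Hba-a1 between 0.693 and 0.728, with 0.786 in free RNA.

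The share of Hbb-y, Hba-x and Hbb-bh1 together in globin UMIs was 0.809% (0.789 to 0.830) below 5%, 1.134% (1.124 to 1.145) at 5 to 20%, 1.033% (1.027 to 1.038) at 20% or more, and 0.655% (0.588 to 0.728) in free RNA. By gene, Hbb-y took 0.685%, 0.911%, 0.741% and 0.477%, Hba-x took 0.105%, 0.186%, 0.239% and 0.133%, and Hbb-bh1 took 0.0190%, 0.0371%, 0.0534% and 0.0456%. The embryonic share followed no steady course over finer bins of globin share, lying between 0.693% (2 to 5% globin) and 1.63% (1 to 2% globin). Over depth it was 0.135% in barcodes of over 500 and up to 2000 UMIs and 1.434% in those of over 5000 and up to 10000. Next to the class limits it was 0.732% at 4 to 5% globin, 1.37% at 5 to 6%, 1.163% at 19 to 20% and 0.751% at 20 to 21%.

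**Figure D1:**
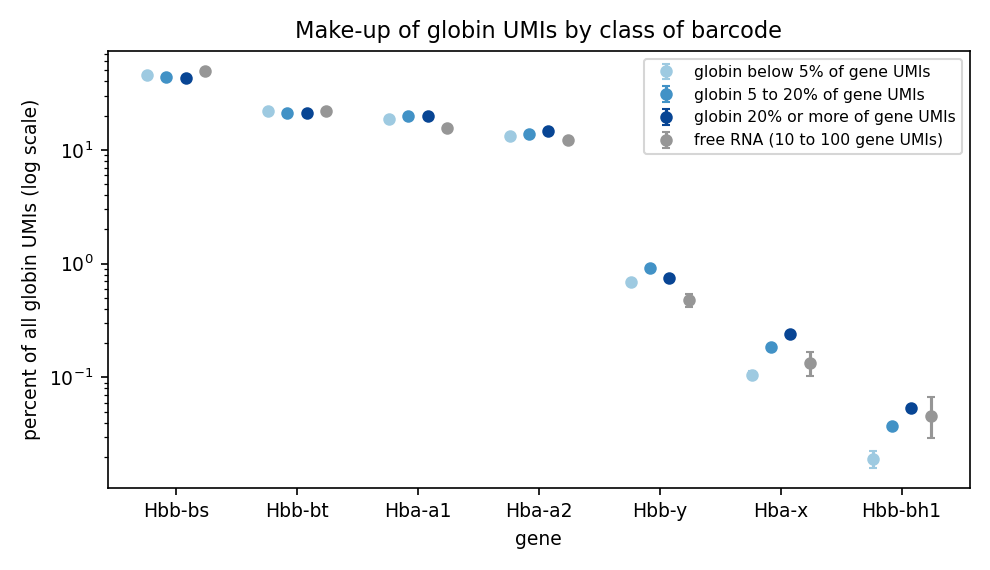
Share of each globin gene in all globin UMIs (vertical axis, percent, log scale) in the 3 classes of barcodes and in free RNA, with exact 95% binomial intervals for counting error. Hbb-bs lies between 43.1% and 49.4% in all 4 sets, while Hbb-y, Hba-x and Hbb-bh1 lie below 1%.

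The embryonic UMIs were concentrated in a few barcodes, and the average of the richest class rested on them. Of 135859 Hbb-y UMIs, found in 1958 barcodes (8.10%), the 10 highest barcodes held 57.8% and the 100 highest held 82.1%, and 1 barcode alone held 15131. Hba-x was concentrated in the same way, with 63.1% of its 38837 UMIs in the 10 highest of 916 barcodes. Hbb-bh1 was spread more widely, with 34.8% of its 8490 UMIs in the 10 highest of 967 barcodes and at most 723 in 1 barcode. For each adult member the 10 highest barcodes held between 1.89% and 2.11% of its UMIs. Without the 10 barcodes with the most embryonic UMIs, an alternative chosen after seeing the data, the embryonic share of the class of 20% or more was 0.261% instead of 1.033%, that of the class of 5 to 20% was 1.063% instead of 1.134%, and that of the class below 5% was the same 0.809%.

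A share per barcode was read where a barcode had 200 or more globin UMIs, which held for 8749 barcodes. No embryonic UMI was counted in 7090 of them (81.0%). An embryonic share of 1% or more was found in 433, of 5% or more in 366, of 10% or more in 302 and of 50% or more in 34. Among the 671 barcodes of over 10000 gene UMIs and 20% or more globin the counts were 21, 10, 10 and 7. A small number of barcodes thus held a majority of embryonic globin RNA.

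As the embryonic share per barcode rose, the adult beta pair gave way far more than the adult alpha pair. The bins were made from the embryonic share, so the decline of the adult genes as a sum is fixed by the split, and its division among them is the description. Hbb-bs fell from 44.2% of globin UMIs in barcodes without an embryonic UMI to 30.5% at an embryonic share of 10 to 30%, to 15.2% at 30 to 50% and to 3.97% at 50% or more. Hbb-bt fell less, from 21.2% to 15.4%, 10.5% and 6.25%, so that the ratio of Hbb-bt to Hbb-bs went from 0.479 to 1.574. Hba-a1 was at 20.1%, 20.1%, 21.5% and 19.9% in the same 4 bins, and Hba-a2 at 14.6%, 12.6%, 11.98% and 10.3%. As sums, the adult alpha pair was at 34.6%, 32.7%, 33.5% and 30.3%, and the adult beta pair at 65.4%, 45.9%, 25.7% and 10.2%. The split within each pair is uncertain. Hbb-y reached 44.5% and Hba-x 14.4% in the highest bin, against 0.623% for Hbb-bh1. With all members counted, the ratio of alpha to beta UMIs was 0.530 in the lowest bin and 0.806 in the highest. Loss of reads shared by the adult copies could shift this ratio and was not tested.

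**Figure D2:**
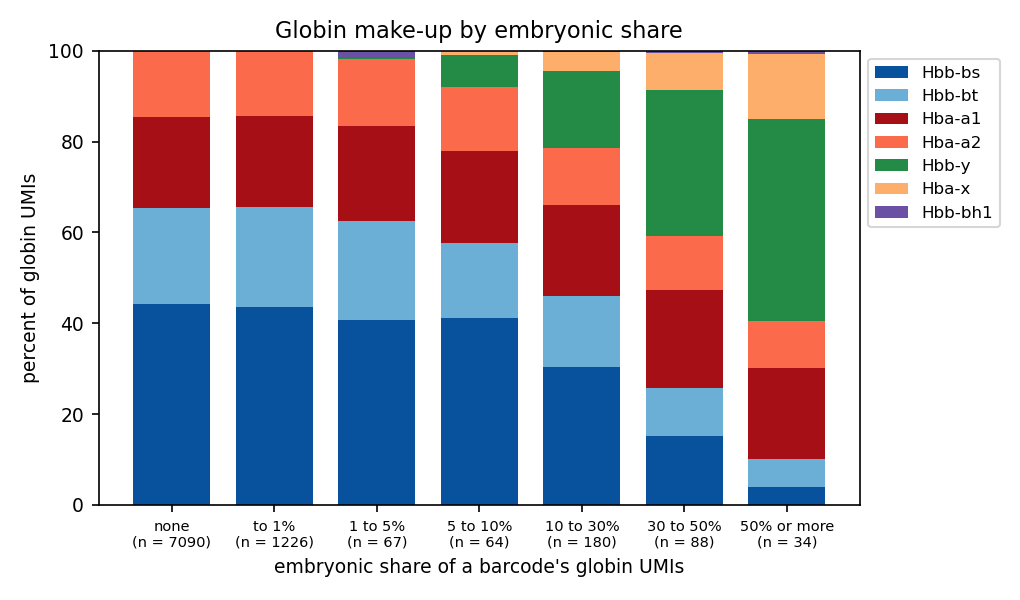
Make-up of globin UMIs (vertical axis, percent) in barcodes of 200 or more globin UMIs, binned by the share of Hbb-y, Hbb-bh1 and Hba-x (horizontal axis, with the number of barcodes). Hbb-bs shrinks from 44.2% to 3.97% between the first and last bin, while Hba-a1 and Hba-a2 together go from 34.6% to 30.3%.

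The 7 deepest barcodes with an embryonic majority were alike in their share of Hbb-y. They were picked by an embryonic share of 50% or more, so this likeness is in part set by that limit. Their gene UMIs ran from 20159 to 43895 and globin took 57.9 to 92.9% of them. Hbb-y made up 44.3 to 46.5% of globin UMIs in these barcodes, Hba-x 10.1 to 18.2%, Hbb-bt 3.97 to 7.62% and Hbb-bs 0.242 to 8.67%. Hbb-y therefore varied little among them and Hbb-bs varied widely. The barcode with the highest embryonic share, 65.7%, held 8265 UMIs of Hbb-y, 3234 of Hba-x and 167 of Hbb-bh1 beside 254 of Hbb-bs, 974 of Hbb-bt, 3304 of Hba-a1 and 1569 of Hba-a2. Hbb-bh1 differed among the 7, at 356 UMIs in one barcode and 0 in another. In the clusters described below, 6 of the 7 lay in the Erythroid-like one led by Slc25a21 and Cpox. The other, with 57.9% globin, lay in an unnamed cluster led by Dcc and Dcx. The remaining 3 of the 10 had embryonic shares of 29.3%, 25.3% and 18.1%. The first and last of these lay in the Neuron-like cluster led by Dcc and Igfbpl1, and the middle one in the cluster led by Ttn and Actc1.

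Hbb-bh1 overlapped with Hbb-y in part. Among barcodes of 200 or more globin UMIs, 360 had Hbb-y at 5% or more of globin, and 357 of these held an Hba-x UMI while 150 (41.7%) held an Hbb-bh1 UMI. Of the 8389 barcodes with Hbb-y below 5%, 695 (8.28%) held an Hbb-bh1 UMI, so Hbb-bh1 was more frequent where Hbb-y was high. Hbb-bh1 reached 0.5% of globin in 194 barcodes, which were 65 (18.1%) of the 360 and 129 (1.54%) of the 8389. Only 8 of those 129 held any Hbb-y UMI and 8 any Hba-x UMI, and their globin UMIs were 1.21% Hbb-bh1 and 0.00226% Hbb-y. Their adult genes were at 41.4% for Hbb-bs, 22.1% for Hbb-bt, 20.6% for Hba-a1 and 14.6% for Hba-a2. These barcodes thus held adult globins and Hbb-bh1 with next to no Hbb-y. Their median was 4400 gene UMIs with 15.6% globin, so the 0.5% limit could be met by very few UMIs of Hbb-bh1. A near-identical profile in another barcode, as defined below, was found for 75.2% of the 129.

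Deep barcodes, where depth limits detection least, showed both patterns. Of the 671 barcodes of over 10000 gene UMIs and 20% or more globin, 63 (9.39%) had 5 or more UMIs of Hbb-bh1, and 8 of these (12.7%) had 5 or more of Hbb-y and 9 (14.3%) 5 or more of Hba-x. There were 15 with 5 or more UMIs of Hbb-y, of which 13 (86.7%) also had 5 or more of Hba-x and 8 (53.3%) 5 or more of Hbb-bh1. The barcode with the most Hbb-bh1 held 723 UMIs of it among 26318 gene UMIs, with no UMI of Hbb-y or Hba-x beside 8732 of Hbb-bs. Among those with Hbb-y below 5% of globin, the next held 320, 281, 262, 257 and 209 UMIs of Hbb-bh1 and no Hbb-y UMI, and 1 of these held 2 UMIs of Hba-x. With Hbb-y high, the most Hbb-bh1 was 356 UMIs, beside 15131 of Hbb-y.

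**Figure D3:**
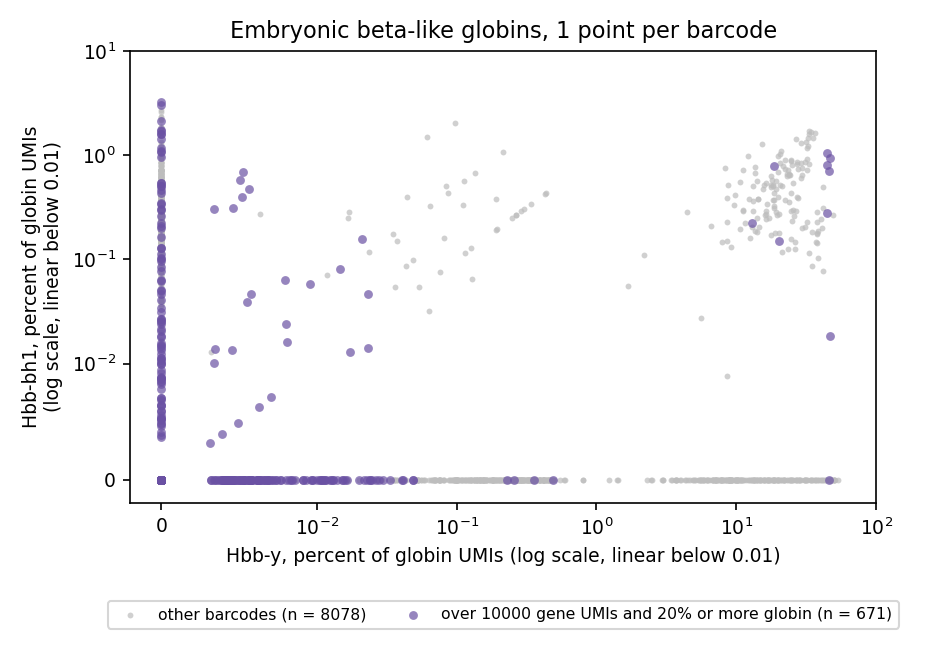
Hbb-y against Hbb-bh1, each as percent of the globin UMIs of a barcode (log scales, linear below 0.01), 1 point per barcode of 200 or more globin UMIs, with the 671 deep globin-rich barcodes in purple. Points along the left edge are barcodes with Hbb-bh1 and no Hbb-y, and the group at the right holds the barcodes with Hbb-y at 5% or more.

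Many barcodes had a near-identical profile in another barcode, so they may not be independent of each other. Each barcode was compared with its 30 nearest neighbours in expression, and a profile was called repeated where the chi-square per degree of freedom against 1 of them, over genes of 10 or more UMIs in the pair, was below 1.2, which is close to sampling noise. Among barcodes of 5000 to 10000 gene UMIs this was so for 16.8% of 2357 barcodes below 0.5% globin, 86.0% of 1101 at 0.5 to 5%, 90.6% of 1506 at 5 to 20%, 82.9% of 322 at 20 to 40%, 63.9% of 61 at 40 to 60% and 45.5% of 11 at 60% or more. Above 10000 UMIs it was so for 1.06% of 4542, 47.4% of 173, 70.3% of 316, 49.3% of 217, 3.91% of 128 and 0.307% of 326 in the same order. In each globin range the share was lower above 10000 UMIs than at 5000 to 10000, so the call depended on depth. Over all depths, which differ between the classes, repeated profiles made up 49.1% of the class below 5%, 93.9% of the class of 5 to 20% and 70.1% of the class of 20% or more. Counts of barcodes are therefore not read as counts of cells, and the cause of the repeats was not tested. Without them the embryonic shares were 0.748%, 1.324% and 1.138%. Of the 366 barcodes with 5% or more embryonic globin, 308 (84.2%) had a repeat, and 1 of the 10 deep ones did.

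**Figure D4:**
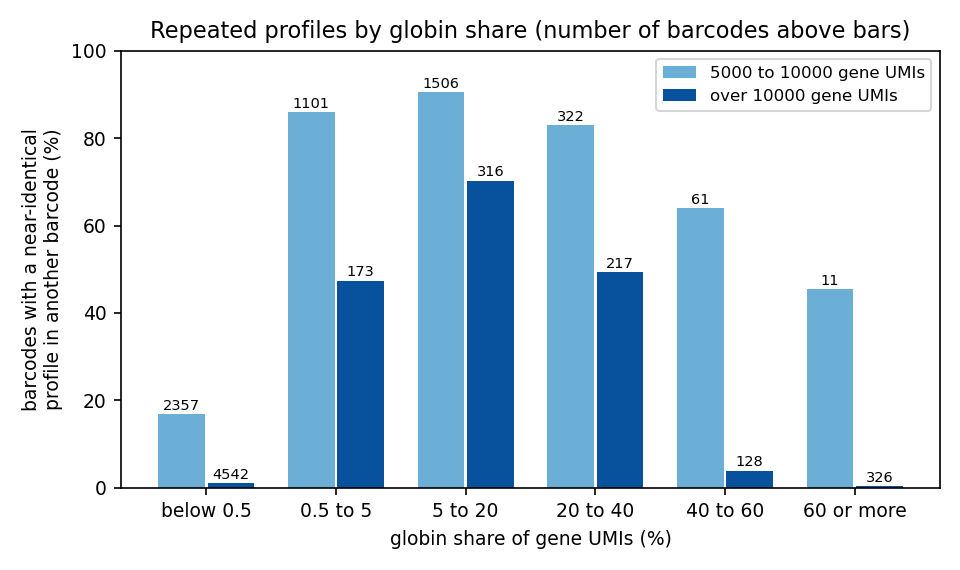
Share of barcodes with a near-identical profile in another barcode (vertical axis, percent) by globin share of gene UMIs (horizontal axis, percent) at 2 ranges of depth, with the number of barcodes above each bar. Repeats are frequent from 0.5 to 40% globin and rare above 60% at over 10000 UMIs, where 0.307% had one.

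The globin genes were then followed over 43 clusters of 50 or more barcodes, which had been made without globin genes. Of these, 4 were called Erythroid-like from their leading genes and held 2317 barcodes. The richest in globin, led by Tmcc2, held 143 barcodes with a median of 82.6% globin. A cluster led by Hemgn and Slc4a1 held 186 with 58.2%, one led by Slc25a21 and Cpox held 916 with 34.0%, and one led by Dppa5a and Cited4 held 1072 with 11.3%. Together they held 60.7% of all globin UMIs, 69.2% of Hbb-bh1, 57.4% of Hba-x and 50.3% of Hbb-y. The embryonic share was 0.907% in them and 1.26% in all other clusters, and 6 of the 2317 barcodes carried 81656 of their 96479 embryonic UMIs. Without those 6, left out after seeing the data, the share was 0.141% (0.139 to 0.143).

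Globin RNA was found in every named cell type. In 19 of the 43 clusters the median barcode had below 0.5% globin, 2 clusters had 0.5 to 2% and 22 had 2% or more. The 2 Neuron-like clusters differed, with an embryonic share of 9.20% in the one led by Dcc and Igfbpl1 (773 barcodes) and 0.0167% in the one led by Prph and Nefm (489 barcodes). The share was 1.81% in Hepatocyte-like clusters, 0.298% in Endothelial-like ones, 0.141% in the Macrophage-like cluster, 0.129% in Neutrophil lineage-like ones and 0.0543% in Neural progenitor or glia-like ones. An unnamed cluster led by the muscle genes Ttn and Actc1 (767 barcodes) had 7.47%, and these clusters were picked out with their values known. Of the 366 barcodes with 5% or more embryonic globin, 127 lay in the cluster led by Ttn, 66 in the Neuron-like one led by Dcc, 63 in a Hepatocyte-like cluster and 36 in the Erythroid-like ones. Clusters other than Erythroid-like held 330 of them (90.2%), close to the 90.4% that these clusters held of all 24161 barcodes. Of the 366, 187 (51.1%) were called hashtag doublets, against 19.2% of all 24161 barcodes. The part of doublets and of repeated profiles in the spread of these 366 over clusters was not tested.

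Detection of the embryonic genes was compared at equal depth by thinning every barcode to 2000 gene UMIs. Hbb-y was then found in 2.60% of barcodes below 5% globin, 6.98% at 5 to 20% and 4.37% at 20% or more, against 7.14%, 9.24% and 11.0% before thinning. Hba-x was found in 1.02%, 5.32% and 3.56% after thinning and in 2.30%, 6.43% and 5.91% before. Hbb-bh1 was found in 0.330%, 4.52% and 9.98% after thinning and in 0.820%, 7.30% and 14.7% before. Hbb-bh1 alone was detected more often the richer the class was in globin. The classes were split by globin share, so a thinned barcode of a richer class keeps more globin UMIs. A rise in detection of a globin gene is therefore in part set by the split. Thinning to 2000 non-globin UMIs instead, which left 1734 barcodes in the richest class, gave 2.62%, 7.64% and 7.30% for Hbb-y, 1.03%, 5.85% and 5.14% for Hba-x, and 0.341%, 5.14% and 12.1% for Hbb-bh1, so the lower detection of Hbb-y in the richest class depended on counting globin in the depth. By cell type the thinned share with Hbb-y was 3.34% in Erythroid-like, 2.19% in Endothelial-like, 8.59% in Hepatocyte-like and 8.49% in Neuron-like clusters, so the share in Erythroid-like clusters lay between those of cell types that should lack the gene, and the share of barcodes did not set Erythroid-like clusters apart. For Hbb-bh1 the thinned share was 7.40% in Erythroid-like and 0.925% in Endothelial-like clusters, with median depths of 3837 and 2968 UMIs. It was 5.55% in Neutrophil lineage-like, 4.63% in Hepatocyte-like and 4.24% in Neuron-like clusters. The Neutrophil lineage-like cluster led by Retnlg and Ngp reached 7.51%, so Hbb-bh1 detection did not set Erythroid-like clusters apart from all other types either.

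Over the 43 clusters, which share 1 library and its free RNA, the 4 adult genes moved as one, with a Pearson correlation of log2(CPM + 10) of 0.999 for Hba-a1 with Hba-a2 and for Hbb-bs with Hbb-bt. Hbb-y and Hba-x were alike at 0.959. Hbb-bh1 was closer to the adult genes (0.674 to 0.684) than to Hbb-y (0.425). Among the 5 genes most like the adult sum were Alas2 (0.954), the first enzyme of haem synthesis in red cells, Car2 (0.932) and Rhd (0.918). The genes most like the embryonic sum reached at most 0.589, for the membrane skeleton gene Ank1, followed by Rec114 (0.576), Alas2 (0.568), Slc4a1 (0.564) and Ermap (0.564).

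The hashtags divided the globin unevenly and placed few of the barcodes. HTODemux gave 7457 barcodes (30.9%) to 1 group, called 11968 (49.5%) negative and 4631 (19.2%) doublets. Globin took 9.16% of gene UMIs in control liver (1782 barcodes), 4.19% in iSuRe-Cre liver (2071), 10.4% in iSuRe-HadCre liver (1030), 5.33% in control heart (698), 4.00% with iSuRe-Cre in heart (950) and 5.19% with iSuRe-HadCre in heart (926). Barcodes of 20% or more globin made up 11.7%, 3.67%, 10.2%, 9.31%, 7.79% and 11.2% of these groups. With at least 25 UMIs of the hashtag they made up 2.5%, 3.67%, 4.10%, 5.86%, 2.36% and 15.6%, so the order of the groups in globin-rich barcodes depended on the calling too. The embryonic share was 0.179%, 1.25% and 0.187% in the livers and 0.0536%, 0.0670% and 2.37% in the hearts. In iSuRe-HadCre heart 1 barcode held 97.98% of the embryonic UMIs, and the share without it was 0.0498%. The median UMIs of the called hashtag were 4, 122, 8, 12, 13 and 20, and other ways of calling or leaving out repeated profiles gave 0.0404 to 0.368%, 0.562 to 2.15%, 0.0168 to 2.01%, 0.0333 to 1.32%, 0.0447 to 0.820% and 0.0952 to 5.02%, so no order of the groups in embryonic globin can be given.

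The other genes of red cell formation were compared between the class of 20% or more and the class below 5% by CPM over non-globin UMIs. Of 15901 genes with 50 or more UMIs, 4.13% were at least 2-fold higher and 21.6% at least 2-fold lower, with a median ratio of 0.681. The lists were read against these shares. In haem synthesis 8 of 9 genes were past 2-fold higher, with a median ratio of 14.0. Alas2 went from 5.94 to 907 CPM (153-fold), Cpox was 19.6-fold higher, and the housekeeping isoenzyme Alas1 had a ratio of 0.634. All 12 red cell membrane genes were past 2-fold higher with a median of 56.2, led by the anion exchanger Slc4a1 (183-fold), with Rhd at 63.4-fold and Epb41 at 5.06-fold. Of 8 erythroid transcription factors 7 were past 2-fold higher with a median of 7.98, among them Nfe2 (31.7-fold), Klf1 (17.1-fold), Tal1 (5.93-fold) and Lmo2 (3.95-fold), while Ldb1 had a ratio of 0.745.

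Iron genes and red cell enzymes followed. Of 8 iron genes 6 were past 2-fold higher with a median of 3.12, with the mitochondrial iron importer Slc25a37 at 55.8-fold, the ferritin chains Fth1 at 5.82-fold and Ftl1 at 3.45-fold, and Ireb2 at a ratio of 0.596. All 11 measured enzymes and other red cell genes were past 2-fold higher with a median of 14.4, from the nuclear protein Hemgn (77.9-fold) and Car2 (32.8-fold) over Blvrb (21.1-fold) and Prdx2 (7.21-fold) to Bnip3l (2.64-fold). Ahsp, the alpha globin chaperone, was not listed in the files under that symbol.

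The regulators of globin switching stood apart, since 1 of 16 was past 2-fold higher and 5 were past 2-fold lower, with a median ratio of 0.609 close to that of all genes. Sox6, which represses embryonic beta-like globin in definitive cells, was the one that was higher, at 307 against 122 CPM (2.51-fold). Bcl11a, the other main repressor of embryonic globin, was at 54.7 against 69.8 CPM (ratio 0.784). Those past 2-fold lower were Myb (0.253), Hic2 (0.390), Hmga2 (0.450), Igf2bp3 (0.490) and Igf2bp1 (0.495). The others lay between, with Zbtb7a at 1.35, Mbd2 at 1.01, Dnmt1 at 0.960, Lin28b at 0.938, Nr2c2 at 0.651, Nfia at 0.638, Nr2c1 at 0.579, Nfix at 0.571 and Lin28a at 0.545 from 5 UMIs.

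Without barcodes that have a repeat of their profile, an alternative chosen after seeing the data, the number of listed genes past 2-fold higher was again 45, and 7 switching regulators and 1 haem gene were past 2-fold lower. With CPM over all gene UMIs, of which globin takes a part, 301 genes were past 2-fold higher and 12113 lower.

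**Figure D5:**
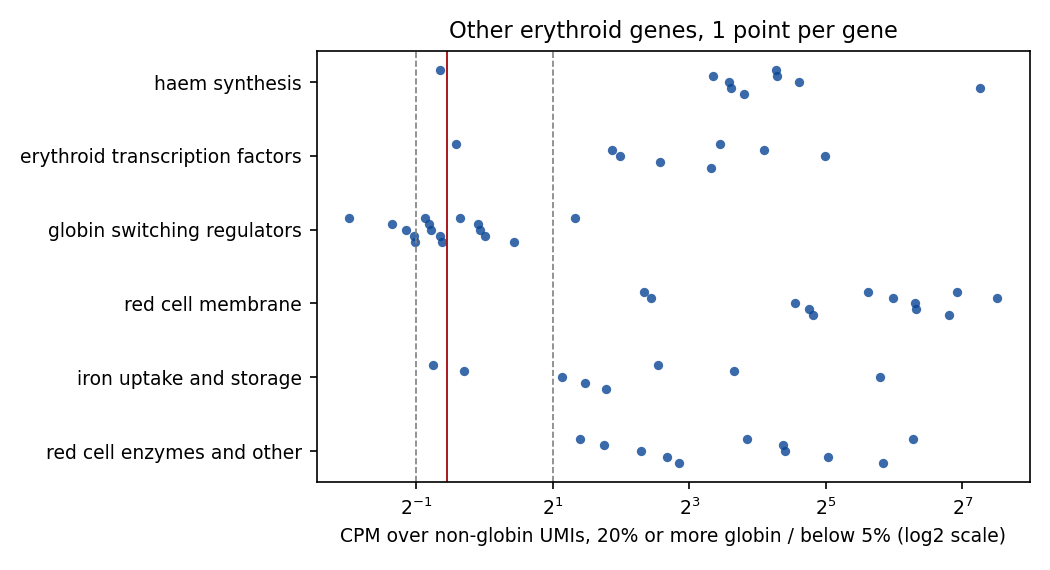
Ratio of CPM over non-globin UMIs between barcodes of 20% or more globin and those below 5% (horizontal axis, log2 scale), 1 point per gene, by list (vertical axis). Dashed lines mark 2-fold either way and the red line the median of all genes, 0.681. All red cell membrane genes lie right of the 2-fold line, while 1 of 16 switching regulators does.

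A last comparison was made within the Erythroid-like clusters, among barcodes of over 10000 gene UMIs and 50% or more globin. Of these, 6 had 5% or more embryonic globin and 362 had less, and their non-globin UMIs numbered 28627 and 2343139. Globin RNA of the 6 was 45.2% Hbb-y, 14.9% Hba-x, 2.75% Hbb-bs and 6.29% Hbb-bt, and that of the 362 was 43.4% Hbb-bs and 21.5% Hbb-bt. In the 362, Hbb-bh1 took 0.0484%, above Hbb-y at 0.00198% and Hba-x at 0.000464%. The sets were chosen on globin make-up after its values were seen, so the values of the other genes are given with no test.

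Of the 16 switching regulators, Sox6 and Nfix were picked by their summed UMIs, where the interval of the ratio between the 6 and the 362 barcodes left out 1. Neither gene separated the sets barcode by barcode, since each had 0 UMIs in some barcodes of both sets. Sox6 had no UMI in any of the 6 and 1939 UMIs in the 362, where it stood at 828 CPM and was found in 281 barcodes. Against the limit of 3 counts in the 6 together, 105 CPM, it was at least 7.90-fold lower in the embryonic barcodes. Of the 362 barcodes, 81 had no Sox6 UMI either, so its absence from 1 barcode was common. Nfix, a transcription factor of the nuclear factor I family, had 2, 5, 14, 0, 0 and 1 UMIs in the 6 barcodes and 68 in all 362, which made 769 against 29.0 CPM (26.5-fold, 15.6 to 43.4), and 14 of the 22 UMIs came from 1 barcode. Bcl11a had no UMI in the 6 and stood at 16.2 CPM in the rest, which lies below the 105 CPM limit, so no difference was detectable at this depth.

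Red cell genes differed among themselves in the same barcodes. Alas2 was close to equal at 3144 against 3092 CPM (1.02-fold, 0.816 to 1.25). Fth1, a ferritin chain, was at 76851 against 21494 CPM (3.58-fold), and 59 of the 362 barcodes reached the lowest of the 6. Of the genes singled out here after their values were seen, Bpgm, which makes the haemoglobin ligand 2,3-bisphosphoglycerate, was at 2969 against 1178 CPM (2.52-fold), Nudt4 at 8663 against 820 CPM, Hemgn at 594 against 2532 CPM (16 of its 17 UMIs in the 6 from 1 barcode), and Tfrc, the transferrin receptor, at 349 against 1322 CPM. With 6 barcodes of 1 library these ratios describe those barcodes.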

How the data were processed

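The authors deposited unfiltered UMI counts of 1 10x Genomics library, made per the study's methods with Cell Ranger 7.1.0 against GRCm38 and Ensembl 98 plus transgene sequences. A hashtag library was quantified with it, and 7 further capture features were not used. The study removed barcodes of 5% or more haemoglobin transcripts, which were kept here. The members and lists were chosen with earlier results of these data known.

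Counts were summed over barcodes of more than 2000 gene UMIs with no other filter. Shares carry Clopper-Pearson intervals, CPM Poisson intervals and ratios exact conditional intervals, all at 95%. Thinned values are means over all draws of 2000 UMIs. Floors are 3 counts. Groups were called with HTODemux (Seurat 5.3.0, R 4.3.3, quantile 0.99) over barcodes with more than 4 hashtag UMIs. Doublets were kept and tried without, and no doublet caller based on expression was run. Clusters came from Leiden (resolution 1, scanpy 1.11.5) on 30 principal components of 2000 variable genes without globins, with 15 neighbours. A cluster of 50 or more barcodes was named where at least 3 of its 10 leading genes belonged to 1 marker list. Conditions added after the data were seen were fewer than 2 leading genes of another list, no globins among the leading genes, and at most 50% hashtag doublets. Named genes were all members, all switching regulators, and from each other list the 3 with the most UMIs in the class of 20% or more and those with the largest and the smallest change, plus the 5 most alike in log2(CPM + 10). Others are marked in the text, and some genes the rule names are not reported here. Scripts ran in Python 3.11.15 with scipy 1.17.1 and scikit-learn 1.9.0, coding and transcript ends were aligned with Biopython 1.88, gene positions are those of GENCODE M21, and the statistics were tested on simulated data. Alternatives changed the UMI minimum, class limits, quality limits, doublets, free RNA, hashtag calls, clustering, thinning, the CPM base and the gene minimum.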

Additional observations from a re-analysis of the deposited data

Results flagged for a closer look

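Among the 671 barcodes of over 10000 gene UMIs and 20% or more globin, 397 (59.2%) were called negative for every hashtag and 135 (20.1%) doublets, so they belong to no group of the labels. Among all 24161 barcodes 49.5% were negative. Their globin could not be placed in liver or heart or in a genotype, and 7 of the 10 deep barcodes with 5% or more embryonic globin were negative as well. The cause was not tested.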

How the results depend on the processing

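No paired analysis was possible because each group was 1 sample of 1 library. Over 19 other settings, 66 values moved beyond their counting interval or, for counts of genes, by over 1.5 times, and 25 did not. The embryonic share of globin UMIs (0.809%, 1.134% and 1.033% from the poorest to the richest class) was 0.787%, 0.994% and 0.997% over barcodes of more than 1000 gene UMIs, and 0.661%, 1.013% and 1.045% over 5000. With class limits of 2 and 10% it was 1.032%, 0.953% and 1.055%, with limits of 10 and 50% 0.963%, 0.906% and 1.201%, and without hashtag doublets 0.870%, 0.995% and 0.880%. The study's limits on genes, UMIs and mitochondrial share gave 1.173% at 5 to 20%. Free RNA of 10 to 50 UMIs held 0.559% embryonic globin instead of 0.655%. Subtracting free RNA (estimated at 51.1%, 58.3% and 29.6% of UMIs) gave 1.336% at 5 to 20% and 1.047% at 20% or more, and could not give a value below 5%. Free RNA held 5.71% globin and the class below 5% held 0.480%. The estimate of 51.1% took away more globin than that class had and left a member with a negative count, so it was too high there. The values of the other classes rest on the same kind of estimate and are uncertain. Alternatives added after seeing the data left out the 10 barcodes highest in embryonic UMIs (1.063% at 5 to 20% and 0.261% at 20% or more) or all repeated profiles (0.748%, 1.324% and 1.138%). Over these alternatives the 3 classes kept no order in embryonic share. Of genes past 2-fold, 656 higher and 3441 lower became 301 and 12113 with CPM over all gene UMIs, by dilution with globin, and 870 and 5446 without repeats. Listed erythroid genes past 2-fold higher numbered 38 to 45. In depth, 200 globin UMIs per barcode can miss an embryonic share under 1.5%.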

Other observations

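The theta globin genes Hbq1a and Hbq1b, which lie among the alpha genes on chromosome 11, were measured beside the members although their symbols place them outside the globin share. Hbq1b had 131 UMIs below 5% globin, 655 at 5 to 20% and 1994 at 20% or more, which was 0.878, 21.9 and 137 CPM over non-globin UMIs. Hbq1a, the more distant gene of the pair, had 7, 52 and 182 UMIs, or 0.0469, 1.74 and 12.5 CPM. In free RNA they had 5 and 0 UMIs.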
